A study of Mus musculus with 10 samples.

Results

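Cell cycle and DNA replication genes are transcribed in dividing cells and are largely silent in resting ones. The set described here was a fixed list of 39 gene names, and each was read through the probe sets whose platform annotation named that gene alone, in all 10 arrays of the study. It made up 39 of the 18194 genes that such probe sets named. The annotation named 38 of the 39, through 89 probe sets. Ccnb1, the cyclin B1 gene, was not named there and has no value below. Tyms, the thymidylate synthase gene, had 4 probe sets and none of them exceeded the detection floor on any array, with signals from 39.4 to 70.7 units on the brightest. The other 37 exceeded the floor of 111 units, the median of all signals, on at least 1 array. Of the 39 names, 11 belong to DNA replication, 25 to mitosis and 3 to transcriptional regulators of both.

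The 28-month group was jejunum, ileum, distal colon, liver and spleen of 9 male ICR mice, an outbred stock, obtained at 8 months of age. The 4-month group was the same 5 tissues of 6 male ICR mice obtained at 2 months. All mice were housed singly, free of specific pathogens, and ate AIN-93, a purified rodent diet. RNA was extracted mouse by mouse and mixed in equal parts, and 1 Affymetrix Mouse Genome 430 2.0 array was hybridised per mix. Its probe sets read the 3' end of transcripts. Each tissue and age therefore has 1 array and no replicate, and the spread between mice was not measured. The labels title the 3 intestinal 28-month arrays differently from the other 7, so a difference in handling and a difference in age cannot be told apart in the intestine.

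A dividing cell first loads the MCM helicase onto origins of replication, then copies its DNA in S phase with polymerases, the PCNA sliding clamp and enzymes that supply deoxynucleotides. The replication genes are switched on by E2F factors as cells leave G1. The mitosis genes follow later, in G2 and M phase, when the DREAM complex gives way to MYBL2 and FOXM1 at promoters that carry a cell cycle genes homology region, called CHR, beside CCAAT boxes. In the gut, epithelial cells divide in the crypts. The mouse spleen holds dividing lymphocytes and keeps blood formation into adult life, and the adult liver divides little and holds many polyploid hepatocytes. E2F7 and E2F8 are repressors that take part in making hepatocytes polyploid in mice.

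Promoters are shown first, because E2F and CHR motifs mark the difference between replication and mitosis genes in sequence, apart from any signal. RefSeq windows on GRCm38.p6, from 250 bases before to 50 bases after the start of transcription, were matched for 33 of the 39 genes. Mcm4, Aurkb, Ccna2, Kif20a, Tpx2 and Foxm1 were not among these. The letters searched on both strands were TTTGGCGC and TTTCGCGC for E2F, TTTGAA for CHR and CCAAT, and matches that overlapped were each counted. The 6 windows that follow are those of 2 helicase genes, 3 mitosis genes and the repressor whose values are described in detail. The window of Mcm5 is chr8:75109259-75109558 on the plus strand, that of Mcm6 chr1:128359656-128359955 on the minus strand and that of Cdk1 chr10:69352863-69353162 on the minus strand. The window of Top2a is chr11:99024140-99024439, that of Mki67 chr7:135716330-135716629 and that of E2f8 chr7:48881547-48881846, all on the minus strand. Capitals mark the motifs, read 5′ to 3′ along the gene's strand.
Mcm5: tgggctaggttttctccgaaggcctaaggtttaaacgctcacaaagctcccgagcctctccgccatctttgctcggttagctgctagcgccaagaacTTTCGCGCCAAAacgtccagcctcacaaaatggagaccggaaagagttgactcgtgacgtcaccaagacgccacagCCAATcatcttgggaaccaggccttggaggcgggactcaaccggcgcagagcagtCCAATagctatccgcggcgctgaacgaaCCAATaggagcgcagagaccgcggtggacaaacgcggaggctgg
Mcm6: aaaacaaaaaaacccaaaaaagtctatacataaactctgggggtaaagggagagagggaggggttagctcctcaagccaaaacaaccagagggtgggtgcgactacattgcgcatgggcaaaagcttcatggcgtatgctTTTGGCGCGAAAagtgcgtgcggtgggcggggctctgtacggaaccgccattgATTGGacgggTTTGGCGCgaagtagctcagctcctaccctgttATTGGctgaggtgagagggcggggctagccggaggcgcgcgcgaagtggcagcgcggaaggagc
Cdk1: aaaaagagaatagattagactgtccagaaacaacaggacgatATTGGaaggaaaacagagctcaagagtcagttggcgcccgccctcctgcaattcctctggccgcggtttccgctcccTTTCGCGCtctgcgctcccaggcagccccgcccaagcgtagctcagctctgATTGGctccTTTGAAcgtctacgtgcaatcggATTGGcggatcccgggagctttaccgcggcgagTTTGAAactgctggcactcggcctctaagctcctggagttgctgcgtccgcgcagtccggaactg
Top2a: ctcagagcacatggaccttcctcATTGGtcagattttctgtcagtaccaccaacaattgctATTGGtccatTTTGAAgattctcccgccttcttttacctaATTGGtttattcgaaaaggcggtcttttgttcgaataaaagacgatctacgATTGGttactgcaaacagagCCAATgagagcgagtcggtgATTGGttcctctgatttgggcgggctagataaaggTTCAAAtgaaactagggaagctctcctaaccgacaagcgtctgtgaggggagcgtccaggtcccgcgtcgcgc
Mki67: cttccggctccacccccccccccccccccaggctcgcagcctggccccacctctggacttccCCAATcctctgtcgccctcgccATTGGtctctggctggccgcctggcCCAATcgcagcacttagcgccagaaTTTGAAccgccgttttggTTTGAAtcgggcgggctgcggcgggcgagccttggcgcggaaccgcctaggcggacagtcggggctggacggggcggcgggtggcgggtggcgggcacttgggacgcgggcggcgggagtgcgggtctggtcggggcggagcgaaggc
E2f8: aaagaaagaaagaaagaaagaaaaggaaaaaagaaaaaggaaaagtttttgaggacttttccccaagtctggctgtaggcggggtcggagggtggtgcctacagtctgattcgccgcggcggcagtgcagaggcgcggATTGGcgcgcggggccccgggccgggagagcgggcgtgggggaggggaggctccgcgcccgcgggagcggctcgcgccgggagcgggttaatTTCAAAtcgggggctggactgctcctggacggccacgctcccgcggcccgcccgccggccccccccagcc

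An E2F match stood in 5 of the 10 replication promoters matched (50%), in Mcm3, Mcm5, Mcm6, Mcm7 and Pola1. It stood in 1 of the 21 mitosis promoters (4.76%), that of Cdk1, and in 0.929% of the 27025 genes in the promoter table. In Mcm5 and Mcm6, a pair of E2F matches on opposite strands overlapped. A CHR match stood in 16 of 21 mitosis promoters (76.2%), in 1 of 10 replication promoters (10%), that of Mcm2, and in 20.2% of all genes. CCAAT stood in 80% of replication promoters and in 85.7% of mitosis promoters, against 41.1% of all genes. The E2f8 window held 1 CHR and 1 CCAAT match, and that of E2f1 held neither. A match is a run of letters and does not show that a factor binds there.

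Before the results, several arrays need a description. Tissue markers matched the labels. Summed hepatocyte markers read 149286 units at 28 months and 151434 units at 4 months in liver, against at most 32995 units elsewhere. Summed B cell markers read 30274 and 39065 units in spleen, against at most 2938 units elsewhere, and the ileal bile acid genes read 41106 and 21788 units in ileum, against at most 564 units elsewhere. The 4-month spleen array also carried pancreatic acinar genes, with a sum of 15722 units over 3 genes, against 253 units at 28 months, where all 3 were below the floor. The elastase gene Cela2a read 57.4 units in 28-month spleen and 8306 units in 4-month spleen. Both jejunum arrays carried the acinar genes as well, with 26164 units at 28 months and 25577 units at 4 months. All 3 genes exceeded the floor there, and no array of ileum, distal colon or liver summed to more than 328 units. The 4-month ileum array carried the lactase gene Lct, which marks the upper small intestine, at 14054 units, against 92.1 units in 28-month ileum. Age ratios in spleen and ileum rest on these 4-month spleen and ileum arrays, so results over several tissues are also given without them.

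Levels of these genes differed widely by tissue. Spleen was the highest of the 5 tissues for 35 of the 37 measured genes, and liver the lowest for 34. Both spleen arrays lay above the other 8 for 31 of the 37, against 25% of all 13995 genes above the floor on at least 1 array. Both liver arrays lay below the other 8 for 32 of the 37, against 22.5% of all genes. In limma, with age as a covariate and the 2 ages of a tissue standing in for replicates, 36 of 37 were higher in spleen than in the mean of the other 4 tissues. The background for that call, at an adjusted p below 0.05 over 13995 genes, was 33.4%. Median log2 differences were 2.10 for the 10 replication genes and 1.86 for the 24 mitosis genes. Fewer dividing cells and less of these RNAs per cell cannot be told apart in bulk tissue.

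Rrm2, the small subunit of ribonucleotide reductase, and Mki67, the gene of the Ki-67 antigen that coats mitotic chromosomes, had the largest spleen differences of the 37 genes. Rrm2 read 10584 units in 28-month spleen and 6581 units in 4-month spleen, against 443 to 1179 units on the other 8 arrays. Its log2 difference was 3.62 ± 0.14 (SE; adjusted p = 7.08e-06, limma). No other array reached the lower of the spleen values. Mki67 read 12169 units in spleen at 28 months and 8955 units at 4 months. In the intestine it read 2665 and 1817 units in jejunum, 1732 and 1733 units in ileum and 1361 and 1642 units in distal colon at 28 and 4 months. In liver it read 112 units at 28 months and 80.6 units at 4 months, either side of the floor. The Mki67 levels thus formed 3 separate steps, with spleen above intestine and intestine above liver. The log2 difference of spleen from the other 4 tissues was 3.55 ± 0.16 (SE; adjusted p = 1.2e-05, limma).

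Plk1, the polo-like kinase of mitotic entry and spindle assembly, was the 1 mitosis gene whose highest tissue was not spleen. It read 616 and 393 units in jejunum at 28 and 4 months and 580 and 308 units in spleen, so that the tissues overlapped. Tk1, the salvage kinase that phosphorylates thymidine, read 1318 and 811 units in spleen and 1043 and 717 units in jejunum at the same ages, which also overlapped. Foxm1, the activator of G2 and M phase genes, was the exception among the 37 in the spleen test, at -0.34 ± 0.13 (SE; adjusted p = 0.0608, limma). Its brightest probe set read 258 and 203 units in spleen, against 492 and 401 units in distal colon, at 28 and 4 months. No other Foxm1 probe set had distal colon above every other tissue at both ages. The second read 138 and 174 units in distal colon, against 190.5 and 166 units in ileum, and the third 67.4 and 63.3 units, against 138 and 105 units in jejunum.

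**Figure D1:**
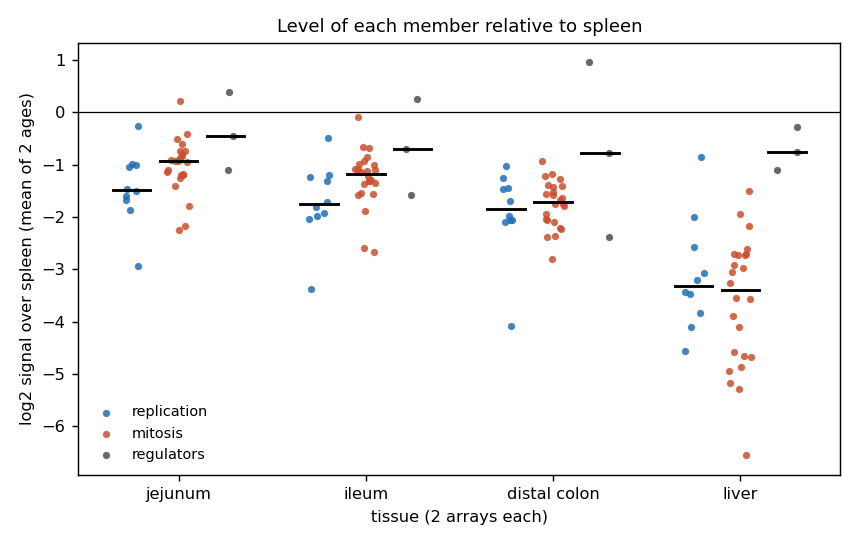
Level of each measured gene in 4 tissues relative to spleen, as a log2 difference of the mean of 2 ages, with spleen at 0. Points are genes, bars are group medians (blue, replication, 10 genes; orange, mitosis, 24 genes; grey, regulators, 3 genes), and liver points of genes at the floor are upper limits. Almost all points lie below 0, and liver lies lowest, down to -6.55 for Mki67.

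Replication and mitosis genes parted in liver by whether they could be read at all. All 10 replication genes exceeded the floor on both liver arrays. Of the 24 mitosis genes, 4 did so on both liver arrays (Cdk1, Kif23, Cenpa and Cdca8), 5 on 1 of them and 15 on neither. On each of the other 8 arrays all 37 genes exceeded the floor. In limma 34 of 37 were lower in liver than in the mean of the other 4 tissues, against a background of 37.5%. The exceptions were Tk1 (-0.36 ± 0.17, SE; adjusted p = 0.107), E2f1 (-0.27 ± 0.11, SE; adjusted p = 0.0756) and E2f8 (0.16 ± 0.37, SE; adjusted p = 0.738). Median log2 differences were -1.83 for replication genes and -2.24 for mitosis genes, and with so many mitosis genes at the floor in liver the second is an understatement. Over a floor at percentile 75 the liver test called 21 of 35 genes as lower, against 37.6% of all genes.

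Pcna, the sliding clamp of the replication fork, and Cdk1, the kinase that drives entry into mitosis, are 1 example of each group. They do not stand for all of it. Median log2 differences of liver from spleen were -3.31 for replication genes and -3.40 for mitosis genes, the second limited by the floor. The groups overlapped, with the replication gene Mcm5 at -4.56 and the mitosis gene Cenpa at -3.26. Pcna read 2516 and 2647 units in liver at 28 and 4 months, against 16546 and 14338 units in spleen, a log2 difference of -2.58 between the tissue means. It read 8136 and 6955 units in jejunum, 6569 and 6863 units in ileum and 5814 and 5521 units in distal colon. Cdk1 read 182 and 145 units in liver, against 3069 and 1858 units in spleen, a log2 difference of -3.88. Cdk1 was close to the floor in liver, and Pcna far above it. Pcna was also brighter than Cdk1 on every array of the other tissues. Cdk1 read 1859 and 1338 units in jejunum, 1227 and 1269 units in ileum and 802 and 802 units in distal colon at 28 and 4 months.

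Within the intestine most of these genes were higher in the small intestine than in distal colon. All 4 small intestine arrays lay above both distal colon arrays for 28 of the 37 genes, against 23% of all genes. This held for 22 of 24 mitosis genes and 5 of 10 replication genes, and the difference between those shares was not tested. With probe sets that can read several transcripts left out, which was added after seeing the data, it held for 16 of 19 mitosis genes and 6 of 9 replication genes. Relative to spleen, the median mitosis gene stood at -0.93 in jejunum, -1.18 in ileum and -1.71 in distal colon on the log2 scale. The median replication gene stood at -1.49, -1.76 and -1.84 in the same segments. By these medians, which average the 2 ages, jejunum stood highest of the 3 segments and distal colon lowest in both groups. At 4 months alone, some mitosis genes read lower in jejunum than in ileum and others higher. The replication medians of ileum and distal colon were close, with Mcm7 and Pola1 higher in distal colon and the others lower. Not every gene was close. Tk1 stood at -0.48 in ileum and -1.25 in distal colon, and Rrm2 at -3.38 and -4.08.

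Top2a, the topoisomerase that untangles chromosomes, is a mitosis gene with that order. It read 2519 and 1840 units in jejunum and 1905 and 1784 units in ileum, against 1087 and 1360 units in distal colon, at 28 and 4 months. It read 5079 and 3260 units in spleen and 116 and 75.8 units in liver. Mcm5, a subunit of the MCM helicase, has probe sets that disagree on that order. Its brightest read 1432 and 1217 units in ileum and 1290.3 and 1299 units in distal colon, and the 2 segments overlapped. Another Mcm5 probe set read 393 and 356 units in ileum, against 275 and 255 units in distal colon, with no overlap. In jejunum the brightest read 1990.2 and 1424 units, in spleen 6231 and 4688 units and in liver 306 and 171 units, again at 28 and 4 months.

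**Figure D2:**
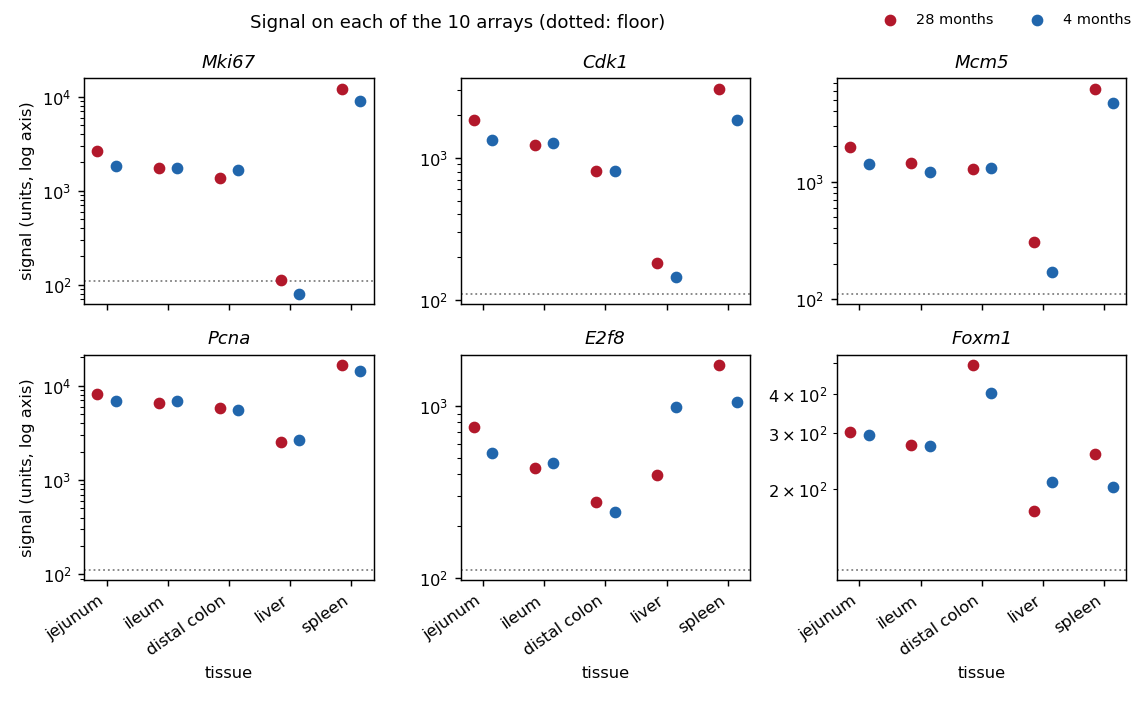
Signal of 6 genes on each of the 10 arrays, in scaled units on a log axis, with 28 months (red) left of 4 months (blue) in each tissue and the floor as a dotted line. Mki67, Cdk1, Mcm5 and Pcna are highest in spleen and lowest in liver, E2f8 is lower at 28 months in liver and higher in spleen and jejunum, and Foxm1, by its brightest probe set alone, is highest in distal colon.

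Age was compared within each tissue as the log2 ratio of 28 over 4 months. With 1 array per age no test exists within a tissue, and a gene was counted as higher or lower from 1.5-fold. The only error that can be had within a tissue is the scatter between probe sets of a gene. It covers neither mice nor arrays, and it is not the error of a group median. The median SD of the log2 ratio between probe sets of a gene was 0.11 to 0.14 by tissue over all genes, and 0.10 to 0.18 over the listed genes. In spleen and jejunum nearly every listed gene was higher at 28 months, and in ileum they were evenly split. In distal colon the replication median was above 0 and the mitosis median slightly below it, and in liver 3 helicase genes were past 1.5-fold higher and E2f8 was lower.

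Spleen showed the most genes past 1.5-fold. All 37 measured genes had a higher signal at 28 months, from 0.21 for Pcna to 0.91 for Plk1, against 51.9% of all genes. The median log2 ratio was 0.56 against 0.01 over all 11925 genes measured there. Of the 37, 16 were 1.5-fold or more higher, against 3.19% of all genes, and 0 were lower by as much, against 1.95%. The 16 comprised 4 of 10 replication genes, 11 of 24 mitosis genes and E2f8. Group medians were 0.51 for replication and 0.57 for mitosis, so that replication minus mitosis was -0.06. The error of that difference was not measured.

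The 4 genes furthest apart by age in spleen all act in mitosis. Plk1 read 580 units at 28 months and 308 units at 4 months, a 1.88-fold ratio. Tpx2, which activates Aurora A on spindle microtubules, read 919 and 493 units, a 1.86-fold ratio. Bub1b, a kinase-like protein of the spindle checkpoint, read 986 and 529 units, also a 1.86-fold ratio. Cdc20, the activator of the anaphase-promoting complex, followed with 4986 units at 28 months and 2845 units at 4 months, a 1.75-fold ratio. All 3 measured probe sets of Cdc20, and both of Tpx2 and of Bub1b, were higher at 28 months. By the median over all probe sets Tpx2 stood at 0.48 in spleen, below 1.5-fold. That median takes in probe sets below the floor at both ages. The measured sets stood at 0.90 and 0.44.

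Among spleen replication genes, Tk1 (0.70), Rrm2 (0.69), Mcm6 (0.67) and Mcm3 (0.66) passed 1.5-fold. Pcna was the least different replication gene, with 16546 units at 28 months and 14338 units at 4 months, a 1.15-fold ratio. E2f1, the activator of S phase genes, read 277 units at 28 months and 192 units at 4 months, and Foxm1 read 258 and 203 units, ratios of 1.44-fold and 1.27-fold. E2f8 read 1722 units and 1049 units, a 1.64-fold ratio.

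Cell type markers also differed by age in spleen. Summed erythroid precursor markers read 45924 units at 28 months and 32101 units at 4 months, and all 8 measured had higher signals at 28 months, with a median log2 ratio of 0.57. Summed granulocyte precursor markers read 3044 and 812 units, with all 5 past 1.5-fold, and megakaryocyte markers 25616 and 19073 units. Summed B cell markers were lower, at 30274 and 39065 units. T cell markers read 7548 and 7650 units. Plasma cell markers read 54310 and 44682 units, with 6 of 6 above 0. Germinal centre B cell markers read 3133 and 2368 units, with 5 of 6 above 0. Rgs13, at 973 and 305 units, was the only 1 past 1.5-fold and made up most of the difference between those sums. Mybl1 stood at 0.01, with its 4-month signal below the floor, and Bcl6 was lower, at 1171 and 1292 units. The acinar genes of the 4-month array are given above. Their part in the spleen ratios was not tested.

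Jejunum resembled spleen in direction with smaller ratios. Of 37 genes, 36 had a higher signal at 28 months, against 55.9% of all genes. The median was 0.48 against 0.03 over all 12324 genes measured there. Only 5 reached 1.5-fold higher, against 2.01% of all genes, and 0 were lower by as much, against 3.04%. All 10 replication genes were above 0, from 0.23 for Pcna to 0.57 for Pola1, the catalytic subunit of the polymerase that starts DNA strands. All 24 mitosis genes were above 0 as well, from 0.18 to 0.75. The group medians were 0.47 and 0.48, a difference of -0.02.

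The 5 past 1.5-fold in jejunum were all mitosis genes. Bub1b read 563 units at 28 months and 335 units at 4 months, a 1.68-fold ratio. Nusap1, which bundles spindle microtubules, read 1032 and 632 units, a 1.63-fold ratio. Plk1 read 616 and 393 units, a 1.57-fold ratio, as shown above by tissue. Kif11, the motor that pushes spindle poles apart, read 548 and 352 units, a 1.56-fold ratio. Aurkb, the kinase of the chromosomal passenger complex, was the fifth, at 290.2 and 188 units. By the median over all probe sets, those below the floor included, Bub1b stood at 0.51 and Nusap1 at 0.36 on the log2 scale, both below 1.5-fold. The second Nusap1 probe set was below the floor, at 36.2 and 35.7 units. Both measured Bub1b probe sets were above 0, at 0.45 and 0.75. The regulators were split, with E2f8 at 749 and 529 units and E2f1 at 168 and 171 units.

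Crypt and plasma cell markers also differed in jejunum. Summed stem cell and crypt markers read 18087 units at 28 months and 12685 units at 4 months, and all 6 were above 0, with a median log2 ratio of 0.43. The crypt gene Olfm4 alone read 14352 and 9840.2 units. Summed absorptive enterocyte markers were lower, at 152955 units at 28 months and 203300 units at 4 months, and plasma cell markers were higher, at 48289 and 36634 units. Their part in the jejunal ratios was not tested.

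Ileum showed no common direction. Of 37 genes 20 had a higher signal at 28 months, or 54.1%, against 53.9% of all genes. The median was 0.02 against 0.03 over all 12504 genes measured there. None passed 1.5-fold in either direction, against 5.22% of all genes higher and 4.17% lower. The ratios ran from -0.32 for Cenpa, the centromeric histone H3 variant, to 0.43 for Pola1. Group medians were 0.04 and 0.02. Mki67 read 1732 and 1733 units at 28 and 4 months and Cdk1 1227 and 1269 units, so the arrays did not separate the ages. Smooth muscle markers summed to 38814 units at 28 months and 23692 units at 4 months and crypt markers to 11744 and 12040 units. With the lactase signal of the 4-month array, their part in the ileal ratios was not tested.

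In distal colon the medians of the 2 groups fell on opposite sides of 0, the mitosis median only slightly below it. The error of these medians was not measured. Of the 10 replication genes, 9 had a higher signal at 28 months, with a median log2 ratio of 0.17, against 10 of 24 mitosis genes with a median of -0.09. The share of all genes with a higher signal at 28 months was 55.4%. Replication minus mitosis was 0.26, the widest of the 5 tissues by the measured genes, and the median over all 12360 genes measured was 0.03. That ranking depends on the floor in liver. Over genes above the floor at both ages, the liver medians were 0.36 for replication and 0.07 for mitosis, which lie further apart. Of 37 genes, 0 were 1.5-fold higher, against 2.57% of all genes, and 1 was lower by as much, against 2.35%. Mcm2, a helicase subunit, and Pola1 had the highest ratios there. Mcm2 read 553 units at 28 months and 386 units at 4 months, and Pola1 read 479 and 332 units, at 0.52 and 0.53 on the log2 scale. Mki67 read 1361 and 1642 units, at -0.27, and Top2a 1087 and 1360 units, at -0.32.

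The 1 colonic gene past 1.5-fold was Ccna2, the cyclin A2 of S and G2 phase. It read 657 units at 28 months and 1084 units at 4 months, a 1.65-fold lower signal. Its second probe set read 406 and 409 units, at -0.01, so the probe sets disagreed. By their median Ccna2 stood at -0.37, below 1.5-fold. Smooth muscle markers summed to 69079 units at 28 months and 97172 units at 4 months in distal colon, and B cell markers to 2938 and 1391 units. Crypt markers summed to 2525 and 2073 units, with 5 of 5 above 0 and a median log2 ratio of 0.25. Of the 3 absorptive enterocyte markers measured there, 2 were lower at 28 months, with a median log2 ratio of -2.02. Those 2 were Fabp2, at 1049 and 4246 units, and Alpi, at 82.4 and 972 units. Of the 3 distal colon markers, 2 were lower and 1 higher, with a median of -0.03. Car1 among them read 6485 and 22227 units. Their part in the colonic ratios was not tested.

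**Figure D3:**
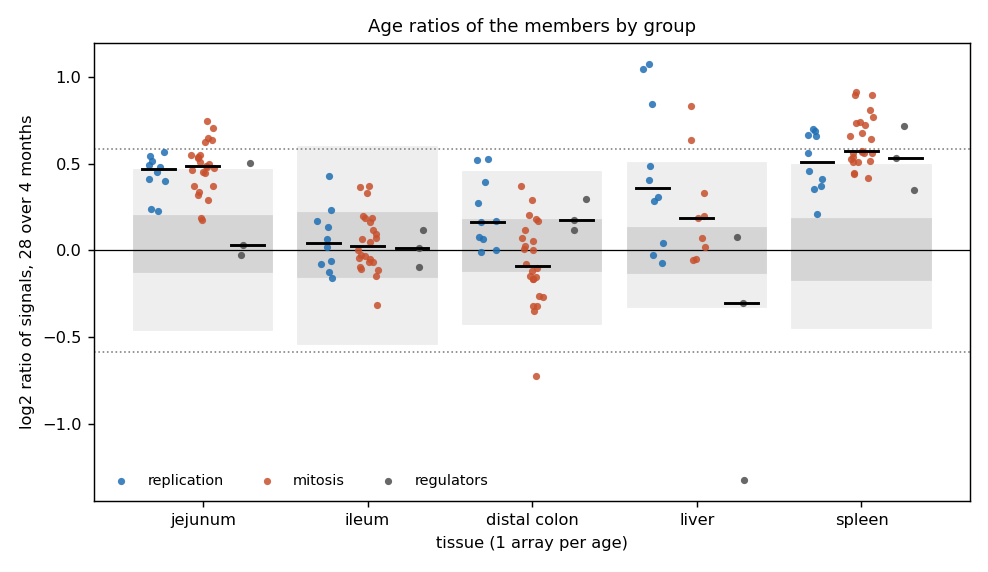
Log2 ratio of signals at 28 over 4 months for each measured gene, by tissue and group, with 1 array per tissue and age. Points are genes, black bars are group medians, dark and light grey boxes hold the middle 50% and 90% of all genes, and dotted lines mark 1.5-fold. Spleen and jejunum lie above 0 in both main groups, and in distal colon the replication median (0.17) and the mitosis median (-0.09) lie on opposite sides of 0.

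In liver 22 of the 37 genes could be compared, since the other 15, all mitosis genes, were below the floor at both ages. Of these 22, 16 had a higher signal at 28 months, against 46.7% of all genes. The median was 0.19 against -0.01 over all 12001 genes measured there. Of the 22, 5 were 1.5-fold or more higher, against 4% of all genes, and 1 was lower by as much, against 0.8%. The replication genes had a median of 0.36, with 8 of 10 above 0. Among the mitosis genes 9 were compared, 5 of which exceeded the floor at 28 months alone and so had to be higher there. The 4 above the floor at both ages had a median of 0.07.

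Helicase genes had the highest liver ratios. Mcm3 read 264 units at 28 months and 125 units at 4 months, a 2.11-fold ratio, and its 3 measured probe sets were all higher at 28 months. Mcm6 read 481 and 233 units, a 2.06-fold ratio, with both measured probe sets higher. Mcm5 read 306 and 171 units, a 1.79-fold ratio, on 1 measured probe set. Mcm7, of the same helicase ring, did not follow, with 1100.3 units at 28 months and 1119 units at 4 months. Mcm3 and Mcm5 rest on probe sets that can read several transcripts. Without such sets Mcm3 stood at 0.11 as a lower bound, with 120 units at 28 months and 78.2 units, below the floor, at 4 months. Mcm5 was then below the floor at both ages. The remaining 2 were Cdc20, with 197 units at 28 months against 104 units, below the floor, at 4 months, and Ncapg2 of the condensin II complex, with 172 against 101 units. By the probe sets used, those ratios are at least 1.78-fold and 1.56-fold. The other Cdc20 probe sets disagreed in liver. One read 203 units at 28 months and 132 units at 4 months, and the other 224 and 229 units.

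E2f8 ran against the helicase genes in liver. It read 394 units at 28 months and 987 units at 4 months, a 2.50-fold lower signal and a log2 ratio of -1.32. In the other tissues its ratios ran from -0.10 in ileum to 0.72 in spleen. E2f7, its partner repressor, is not on the list and was looked up after its values were seen. It read 304 units in 28-month liver and 107 units, below the floor, in 4-month liver, at least 2.74-fold higher. The other regulators differed less in liver, with E2f1 at 141 and 134 units and Foxm1 at 171 and 210.3 units at 28 and 4 months.

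Macrophage markers were higher in 28-month liver. They summed to 19101 units, against 10507 units at 4 months, and all 6 passed 1.5-fold. Granulocyte precursor markers summed to 1584 units at 28 months and 470 units at 4 months, mostly through the proteinase 3 gene Prtn3, with 1127 and 80.6 units, while Mpo and Elane lay near the floor. Plasma cell markers summed to 24299 units at 28 months and 22825 units at 4 months, with 3 of 4 measured above 0. Of these, Jchain read 1543 units at 28 months and 99.6 units at 4 months and Mzb1 368 and 142 units. Sdc1 read 6534 and 5350 units, and Xbp1 was lower, at 15733 and 17128 units. Hepatocyte markers summed to 149286 and 151434 units. Their part in the liver ratios was not tested.

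**Figure D4:**
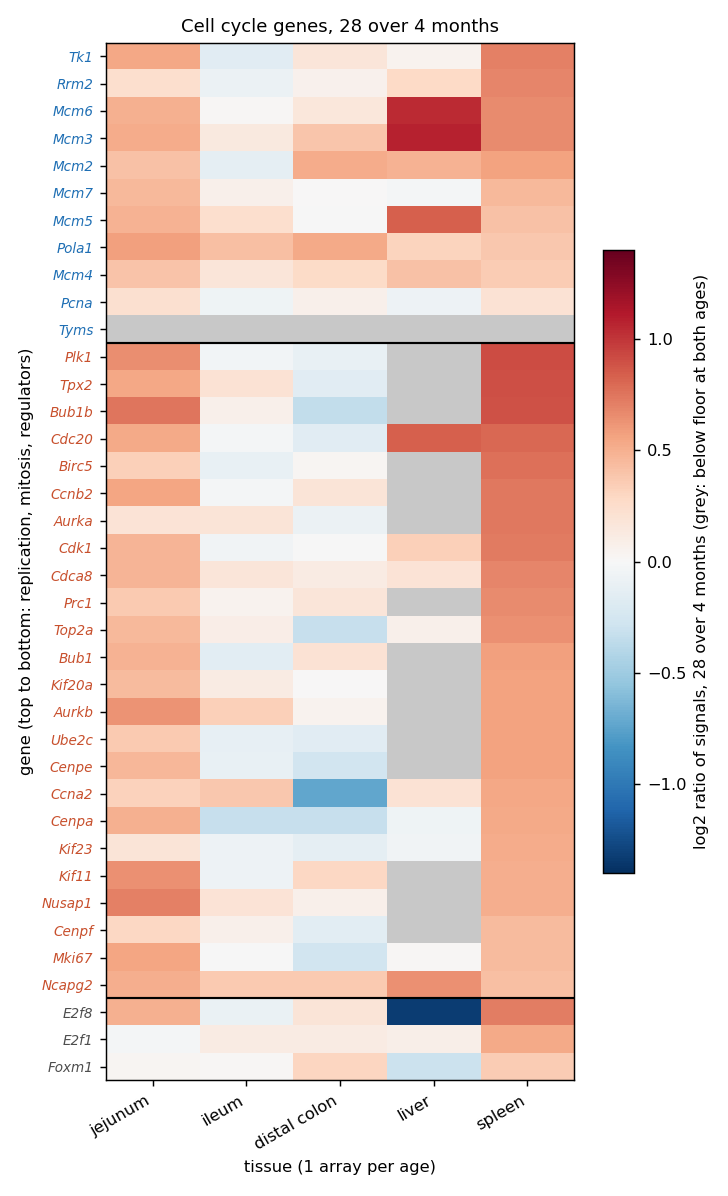
Log2 ratio of signals at 28 over 4 months for each gene (rows, grouped as replication in blue, mitosis in orange and regulators in grey lettering, top to bottom) in each tissue (columns, 1 array per age). Red is higher at 28 months, blue is lower and grey marks genes below the floor at both ages. Jejunum and spleen are red nearly throughout, E2f1 and Foxm1 being close to 0 in jejunum, E2f8 in liver is the darkest blue, and 15 mitosis genes are grey in liver.

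Over the 5 tissues together, no age difference passed the test. With tissue as a block and tissues standing in for replicates, limma called 0 of 13995 genes (0%), and 0 of the 37, the smallest adjusted p being 0.517. At an unadjusted p below 0.05 there were 971 genes, 6.94% of all, and 10 of the 37, all with higher signals at 28 months. Those 10 were Mcm2, Mcm3, Mcm4, Mcm5, Mcm6, Pola1, Ncapg2, Cdca8, Aurkb and Nusap1. With trended and robust variances the same fit called 0 genes, with 936 genes and 12 of the 37 below 0.05 unadjusted. Without the 4-month spleen array 5 of the 37 were below 0.05 unadjusted, against 9% of all genes, and without the 4-month ileum array 14 were, against 6.01%. The tissues of an age came from the same mice, so they are not independent and the test rests on 1 pool of mice per age.

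Ncapg2 and Pola1 had the smallest p of the 37 in that test. Pola1 read 497 and 335 units in jejunum, 399 and 297 units in ileum and 479 and 332 units in distal colon at 28 and 4 months. It read 226 and 182 units in liver and 918 and 709 units in spleen. Pola1 was thus higher at 28 months in 5 of 5 tissues, by 0.44 ± 0.06 (SE; adjusted p = 0.517, limma). Ncapg2 was higher in 5 of 5 tissues by 0.46 ± 0.06 (SE; adjusted p = 0.517, limma). Mki67, with opposite signs in jejunum and distal colon, averaged 0.15 ± 0.13 (SE; adjusted p = 0.799, limma), and E2f8 averaged -0.01 ± 0.29 (SE; adjusted p = 0.997, limma).

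The age ratio was also compared between the 3 intestinal segments and the 2 other tissues. Limma called 0 of 13995 genes (0%) for that difference, and 0 of the 37, with a smallest adjusted p of 0.763. At an unadjusted p below 0.05 there were 890 genes, 6.36% of all, and 3 of the 37, a share close to that background. With trended and robust variances 0 genes were called and 796 had an unadjusted p below 0.05.

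Other genes of the same pathways, listed for comparison, are described next. Their counts past 1.5-fold stand against the shares of all genes given above, 3.19% higher in spleen and 2.01% in jejunum. Their counts above 0 stand against 51.9% of all genes in spleen, 55.9% in jejunum and 55.4% in distal colon. In the age test over 5 tissues 0 of the genes tested on any of the 5 lists was called. The list of 35 other mitosis genes had 34 measured in spleen, all higher at 28 months, with 18 past 1.5-fold and a median of 0.59. Cdca3, which helps trigger mitotic entry, read 1385 units at 28 months and 720.1 units at 4 months and Kif2c, a microtubule-depolymerising kinesin, 1156 and 614 units. The lowest of that list in spleen were Smc4 at 0.17 and Anln at 0.26. In jejunum all 34 were higher, 6 of them past 1.5-fold, with a median of 0.45. Espl1, the separase that cuts cohesin, read 316 units at 28 months and 153 units at 4 months there, and Nek2, a centrosomal kinase, 677 and 398 units. In distal colon 16 of 34 were above 0, with a median of -0.01, and in liver 1 of 19, Kif22, passed 1.5-fold.

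The 18 genes of the replication fork and nucleotide supply had 16 measured in jejunum, all above 0, with a median of 0.47. Lig1, the ligase that joins Okazaki fragments, was the 1 past 1.5-fold, at 1004 units at 28 months and 665 units at 4 months. In distal colon 14 of 16 were above 0, with a median of 0.21, led by Pole2 (0.56) and Dut (0.52). In spleen 15 of 16 were above 0 and 5 passed 1.5-fold, led by Uhrf1 (0.78) and Rrm1 (0.63), with Pold1 lowest at -0.13. In liver the median was 0.08 over 12 genes and none passed 1.5-fold.

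The 13 genes of origin licensing and firing had a median of 0.22 in jejunum, where none passed 1.5-fold. In spleen 5 of 13 did, led by Gmnn (0.74) and Cdc6 (0.74), a licensing inhibitor and a licensing factor, with a median of 0.55. Cdc7, the kinase that fires origins, was lowest there at -0.19. In liver the median was -0.00 over 11 genes. Orc1 stood at -0.51, and Mcm10, which helps activate the helicase, at -0.48, with 4032 units at 28 months and 5639 units at 4 months. None of the 11 reached 1.5-fold higher in liver, where Mcm3, Mcm5 and Mcm6 did.

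The 10 cyclins and kinases of G1 were less uniform. Cdk2, the kinase of the G1 to S transition, was higher at 28 months in all 5 tissues, at 0.89 and 0.86 in the jejunum and ileum, 0.85 in spleen, 0.40 in liver and 0.34 in distal colon. Ccnd1, the cyclin D1 gene, read 1995 units in liver at 28 months and 893 units at 4 months, at 1.16. It stood at -0.24 in spleen and -0.25 in distal colon. The 11 genes of the pocket proteins and the DREAM complex had medians from -0.01 to 0.08 in the 5 tissues. Mybl2, a MYB factor of G2 genes, stood at 0.95 in spleen as a lower bound, with 213 units at 28 months and 102 units, below the floor, at 4 months.

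By level, most genes of the other lists were also higher in spleen. In limma 33 of 34 other mitosis genes, 16 of 16 fork genes and 11 of 13 origin genes were higher in spleen than in the mean of the other 4 tissues. For G1 genes the count was 7 of 10 and for pocket protein and DREAM genes 6 of 11. In liver 32 of 34 other mitosis genes were lower, as were 14 of 16 fork genes, 7 of 13 origin genes, 6 of 10 G1 genes and 5 of 11 pocket protein and DREAM genes. The backgrounds of 33.4% and 37.5% apply to these counts too. In the other direction, 2 pocket protein and DREAM genes were lower in spleen, as were 33.3% of all genes. In liver 1 gene of that list and 1 origin gene were higher, as were 3631 of 13995 genes.

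**Figure D5:**
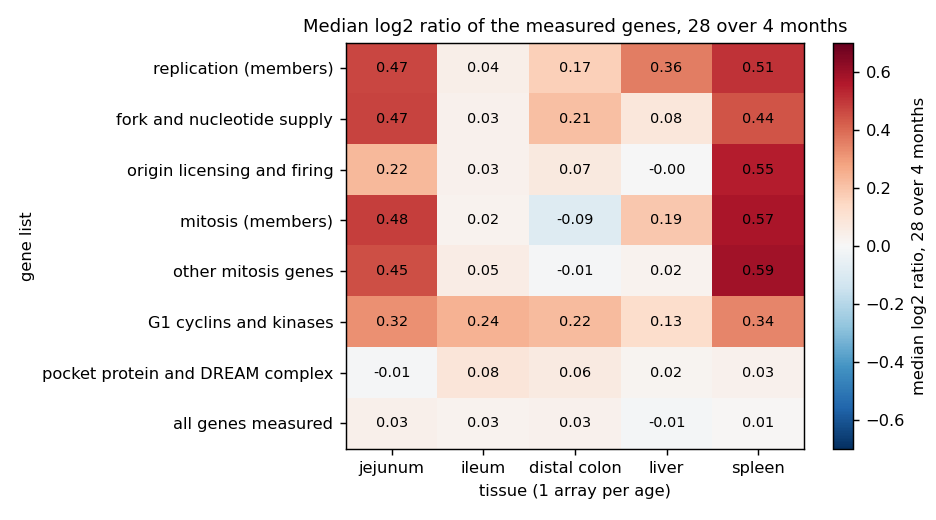
Median log2 ratio of the measured genes at 28 over 4 months, for the listed replication and mitosis genes, 5 other pathway lists and all genes (rows) in each tissue (columns). Each cell prints its median; replication and mitosis lists are highest in spleen and jejunum, near 0 in ileum, and apart from each other in distal colon.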

How the data were processed

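RNA of 5 tissues at 28 and 4 months was measured on 10 arrays, 1 per tissue and age. Per probe set, the authors deposited a log2 signal. How it was scaled is not stated in any source used. The submitters' processing notes name MAS5 and affy. Base 2 was inferred from the range.

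Signals were unlogged and scaled to a mean of 500 units after trimming 2% at each end (factors 2.42 to 2.57). They were floored at 111 units, the median of all signals, which 48.9% to 50.9% of probe sets exceeded per array. The annotation listed a single gene for 34958 of 45101 probe sets and several for 932, and it lacked 9211. For each gene, the brightest probe set was used. The number of arrays limits the precision. Calls used 1.5-fold within a tissue, and limma 3.58.1 (lmFit and eBayes, R 4.3.3, Benjamini-Hochberg adjustment over 13995 genes) across arrays. The fit was tested on simulated data. Scripts ran in Python 3.11.15 with numpy 2.4.6, pandas 2.3.3 and statsmodels 0.14.6, and figures in matplotlib 3.10.9.

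The genes and the pathway and marker lists were chosen with earlier results of these data known. Named in full were Mki67, Top2a, Cdk1, Pcna, Mcm5, E2f1, E2f8 and Foxm1 (Ccnb1 and Tyms had no usable signal), plus up to 4 genes per tissue with the largest ratios past 1.5-fold. Of other lists, the genes with the highest and lowest ratios were named, and further genes are named for contrast. Alternatives were other floors, no floor with 16 units added, other scalings (medians, quantiles, lowess with span 0.3), other probe set rules, fold thresholds at 0.32 and 1 on the log2 scale, and leaving out tissues or arrays.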

Additional observations from a re-analysis of the deposited data

Results flagged for a closer look

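The log2 ratio of E2f8 at 28 over 4 months was 0.72 in spleen and -1.32 in liver, a difference of 2.04. It is listed here because the 1 pair of arrays in spleen and the 1 pair in liver went opposite ways. The difference was not tested, since each tissue has 1 array per age. Spleen read 1722 units at 28 months and 1049 units at 4 months, and liver read 394 and 987 units. Only 1 of the 2 E2f8 probe sets exceeded the floor, and by the median over both the ratios were 0.42 in spleen and -0.89 in liver.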

How the results depend on the processing

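Of the alternative values computed for these results, 473 stayed within the limits used, 42 moved and 0 were labelled as reversed. That label could not be given to counts, nor to medians closer to 0 than the scatter between probe sets. Some of the 473 therefore changed sign. The ileal mitosis median, 0.02 in the main setting, ran from -0.03 to 0.05 over the alternatives. Over a floor at percentile 75, the jejunal mitosis median was 0.36, the liver replication median was 0.000777, 1 jejunal gene and 0 liver genes were 1.5-fold higher, and the liver test called 21 genes. No mitosis gene was above that floor in liver, so no median was given there. Quantile normalisation, lowess, and use of single-transcript probe sets alone each left 3 genes higher in jejunum, and the last of these left 3 in liver. By the median over probe sets 0 genes were lower in distal colon. At a threshold of 0.32 on the log2 scale, 36 genes were higher in spleen (12.3% of all genes), 29 in jejunum (12.2%), 8 in liver (9.84%), 4 in ileum (15.6%) and 4 in distal colon (10.6%), where 3 were lower (8.34%). At 2-fold, 0 were higher in jejunum (0.252%), 2 in liver (1.29%) and 0 in spleen (0.528%), and 0 were lower in distal colon (0.526%). With genes below the floor counted at 0, chosen after seeing the data, the liver mitosis median was 0. The causes of these shifts were not tested, beyond the construction of each alternative.

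Leaving out each tissue in turn gave 0 to 0 calls for age, and a median over tissues of replication minus mitosis from 0.00 to 0.09. Fits without the 4-month spleen or ileum array, chosen after seeing the data, called 0 genes for age, 36 in spleen in both cases, and 35 and 34 in liver. The labels give no replicate numbers, and the age fit pairs the 2 ages within each tissue.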
